A study of Mus musculus with 2 samples.

Results

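The 10 genes followed here encode transcription factors that set naive, memory, effector and innate-like states of lymphocytes: Tcf7, Lef1, Bach2, Id3, Tbx21, Eomes, Zeb2, Gata3, Rora and Zbtb16. They were read in 7 kinds of lymphocyte from livers carrying metastatic melanoma. They were chosen by gene symbol from what is known of their function, and all 10 were found among the 31253 genes measured. The study placed its question in VSIG4, a receptor of Kupffer cells, and T cell responses. Mice of both genotypes bore metastases of B16F10, a melanoma cell line, in the liver. Live (DAPI-negative) CD45+ cells were released with collagenase IV and DNase I, sorted by flow cytometry, and profiled with the 10x Genomics single cell 5′ v1.1 chemistry. In all, 1 library came from wild-type (WT) mice and 1 from mice lacking Vsig4 (Vsig4-/-, here Vsig4 KO), and the labels give neither the number, age nor sex of the mice, nor the allele.

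With 1 library per genotype there is no replicate, so no difference between genotypes was tested. Levels are unique molecular identifiers (UMIs) of a gene summed over the cells of a gate, per 1000000 UMIs of that gate (CPM). Every interval in parentheses is a 95% interval: exact Poisson for levels, Clopper-Pearson for shares of cells and exact conditional binomial for ratios, all covering counting error only. The levels of 2 gates are called apart where the interval of their ratio excludes 1. A ratio between genotypes is always Vsig4 KO over WT. A 1.5-fold difference in either direction was used as a fixed size threshold for pairs of gene and gate with at least 20 UMIs over both libraries.

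TCF-1 (Tcf7) and LEF-1 bind the same DNA motif and are known to maintain naive and memory T cells, and BACH2 is a repressor that restrains effector genes in resting lymphocytes. T-bet (Tbx21) and EOMES are T-box factors known to drive cytotoxic genes, and ZEB2 acts with T-bet in terminally differentiated CD8 T cells and NK cells. GATA3 and RORα (Rora) act in helper, regulatory and innate lymphoid lineages, PLZF (Zbtb16) directs NKT cells and some gamma-delta T cells, and ID3 blocks E proteins by binding them.

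The libraries held 6929 (WT) and 5799 (Vsig4 KO) barcodes, of which 6491 and 5479 were kept, with a median of 3034 and 3260 UMIs. Gates set on raw UMIs of surface genes took 1306 (20.1%) and 1333 (24.3%) of the kept cells: 533 and 504 CD8, 274 and 336 CD4, 51 and 58 Foxp3-positive, 150 and 174 NKT (Klrb1c-positive T cells), 77 and 50 gamma-delta T, 199 and 191 NK, and 22 and 20 ILC1 cells. Median UMIs per cell were lower in WT than in Vsig4 KO in all 7 gates, from 3066 against 3564 in NK cells to 4038 against 4619 in CD8 cells. No cell fell in 2 gates, 1 of 54 barcodes shared by both libraries was a gated cell, the UMIs summed per gate and library ran from 98713 (ILC1, Vsig4 KO) to 2700398 (CD8, Vsig4 KO), and 454 (29.5%) and 488 (30.3%) T cells met no gate. Vsig4 itself had 25 UMIs in 11 of 1001 WT myeloid cells, 3 UMIs in 3 of 444 Vsig4 KO myeloid cells and none in the 7 gates; since the deleted part is not given, UMIs outside it cannot check the label. Marker genes outside the gate rules matched most gate names. Cd247, Lck and Lat summed to 1102 and 1178 CPM in CD8 cells against 16.1 and 16.6 CPM in B cells. Their sum was also 632 and 768 CPM in NK and 345 and 405 CPM in ILC1 cells. It thus sets T cells apart from B cells far more than from NK and ILC1 cells. Ikzf2, Il2ra and Ctla4 summed to 3806 and 4283 CPM in Foxp3-positive cells against 412 and 467 CPM in CD4 cells, and Gzma, Prf1 and Klra8 to 8710.0 and 11240.1 CPM in NK cells against 2159 and 1905 CPM in ILC1 cells. Trgc1, Trgc2 and Il17a summed to 541 and 470.4 CPM in gamma-delta T cells. The names of 2 gates are less secure: of the invariant NKT markers Traj18 was at 0 and Trav11 reached 22.1 and 47.0 CPM in the NKT gate, and the ILC1 gate held Eomes, which liver ILC1 are known to lack. Cxcr6 and Ltb summed to 513 and 486 CPM in ILC1 cells against 92.0 and 61.8 CPM in NK cells, but to 520.3 and 446 CPM in CD8 and 449 and 455 CPM in B cells, and so do not mark the ILC1 gate among lymphocytes. RNA of other cells was low but present: B cell markers (Ighm, Igkc, Cd74) summed to between 177 and 1819 CPM over the gates and libraries, and myeloid markers (Lyz2, C1qa, S100a9) to between 10.1 and 75.9 CPM. The B cell marker sum was also 10275 and 11165 CPM in myeloid cells, and so does not mark B cell RNA alone. Alb and Apoa1 of hepatocytes reached at most 10.1 CPM.

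In the GRCm38 (mm10) annotation of GENCODE M21 the genes lie on 5 chromosomes. Tcf7 spans chr11:52252371-52283014 and Tbx21 chr11:97098071-97115331, both on the minus strand. Lef1 spans chr3:131110471-131224356, Id3 chr4:136143497-136145755 and Bach2 chr4:32238804-32586108, all on the plus strand. Zeb2 spans chr2:44983632-45117395 and Gata3 chr2:9857078-9890034 on the minus strand. Chromosome 9 carries Eomes at chr9:118478212-118486132 and Rora at chr9:68653786-69388246 on the plus strand, and Zbtb16 at chr9:48654297-48836222 on the minus strand. Another annotated gene overlaps Tcf7, Lef1, Eomes, Zeb2, Gata3, Rora and Bach2. Only Gata3 has an overlapping gene on its own strand, 1 of 3, and elsewhere the overlapping gene lies on the opposite strand. The strand setting of the counts is not stated, and the part of such reads in the levels was not tested.

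Several of the factors are regulators of one another, so the 250 bases upstream of each RefSeq start (GRCm38.p6) were searched on both strands for motifs of the factor families themselves. The motifs were CTTTGA (TCF/LEF, present in 13.8% of all 32851 promoters), CACCTG (ZEB E-box, 17.2%), TCACAC (T-box, 12.3%), AGATAA (known for the GATA family, 9.99%), TGANTCA (BACH and AP-1, 6.75%) and TAGGTCA (ROR, 2.23%), and none of these strings or their reverse complements contains another. Entries existed for 9 of the 10 members, with 16 starts in all, and 4 of those starts held a match to any of these motifs. The shares given are for each motif alone. The share of all promoters with a match to any of them was not computed, so the count has no background beside it. The stretches before 3 of the 4 matching starts are printed with that of Eomes, the T-box relative of Tbx21, which held no match. Capitals mark the matched letters, in the direction of transcription. The Tbx21 stretch holds a ZEB E-box on the reverse strand 196 bases before the start. The Bach2 start lies inside the annotated span of the gene, and the stretch before this internal start holds a reverse TCF/LEF string at 93 bases. The stretch before an internal Lef1 start holds reverse TCF/LEF strings at 180 and 120 bases.
Tbx21, chr11:97115332-97115581, minus strand: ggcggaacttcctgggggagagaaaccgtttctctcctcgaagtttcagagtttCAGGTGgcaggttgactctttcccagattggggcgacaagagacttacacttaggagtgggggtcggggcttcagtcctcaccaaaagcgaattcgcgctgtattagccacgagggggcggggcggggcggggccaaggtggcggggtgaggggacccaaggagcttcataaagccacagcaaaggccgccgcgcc
Bach2, chr4:32417185-32417434, plus strand: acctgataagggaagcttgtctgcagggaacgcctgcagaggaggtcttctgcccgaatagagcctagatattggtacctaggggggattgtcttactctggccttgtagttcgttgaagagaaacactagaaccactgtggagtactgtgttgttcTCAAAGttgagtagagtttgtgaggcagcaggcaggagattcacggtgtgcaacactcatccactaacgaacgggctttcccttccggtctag
Lef1, internal start, chr3:131156044-131156293, plus strand: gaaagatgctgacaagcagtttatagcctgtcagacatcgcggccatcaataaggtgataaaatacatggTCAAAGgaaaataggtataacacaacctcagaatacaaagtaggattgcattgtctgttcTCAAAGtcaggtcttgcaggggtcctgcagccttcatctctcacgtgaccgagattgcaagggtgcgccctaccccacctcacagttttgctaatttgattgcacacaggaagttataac
Eomes, chr9:118477939-118478188, plus strand: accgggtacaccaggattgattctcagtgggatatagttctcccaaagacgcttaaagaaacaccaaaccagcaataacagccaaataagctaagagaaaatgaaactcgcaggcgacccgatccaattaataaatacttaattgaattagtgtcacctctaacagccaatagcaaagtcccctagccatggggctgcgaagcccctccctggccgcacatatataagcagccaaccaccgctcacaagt
The fourth matching start, an internal one of Zeb2 at chr2:45110278-45110527 on the minus strand, held the BACH and AP-1 string at 189 and 132 bases upstream. A match describes the letters only, and no binding was measured.

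Tcf7 and Lef1 were highest in CD4 and CD8 cells in both libraries. Tcf7 was at 476 CPM (437–518) in WT CD4 cells and 394 CPM (369–419) in WT CD8 cells, against 523 CPM (488–561) and 393 CPM (369.6–417) in Vsig4 KO. CD4 and CD8 cells were apart in each library, as were CD8 cells and the next gate down. In WT that was the ILC1 gate with 266 CPM (175–387), followed by gamma-delta T (261 CPM), NK (166), NKT (148) and Foxp3-positive cells (122), of which only gamma-delta T and NK cells were apart as neighbours. In Vsig4 KO the lower order was gamma-delta T (155 CPM), NKT (133), NK (110.2), Foxp3-positive (69.6) and ILC1 cells (60.8), where no neighbours were apart. The ILC1 gate thus followed directly on CD8 cells in WT and was last in Vsig4 KO, on 27 and 6 UMIs.

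Lef1 followed a similar order. Its level was 488 and 531 CPM (WT and Vsig4 KO) in CD4 cells and 455 and 493 CPM in CD8 cells, which were not apart, and 218 and 253 CPM in gamma-delta T cells, apart from CD8 cells. The 4 remaining gates lay between 118 and 154 CPM in WT and between 84.7 and 175 CPM in Vsig4 KO, with Foxp3-positive cells lowest in Vsig4 KO, and the only further neighbours apart were gamma-delta T and NKT cells in Vsig4 KO. Across the 7 gates of a library, which share 1 preparation and differ in depth, the levels of Tcf7 and Lef1 had a Pearson r of 0.80 in WT and 0.99 in Vsig4 KO.

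Bach2 differed from both in that its NK level lay between those of CD4 and CD8 cells. Its level was 575 and 621 CPM in CD4, 563 and 520.3 CPM in NK and 512 and 473 CPM in CD8 cells, and of these neighbours only CD4 and NK cells of Vsig4 KO were apart. The ILC1, gamma-delta T and NKT gates held between 271 and 334 CPM. Foxp3-positive cells were lowest in both libraries, with 81.2 CPM (49.6–125) in WT and 169 CPM (128–220.0) in Vsig4 KO, apart from the next gate each time. B cells, the reference gate with the highest Bach2, held 1629 and 1322 CPM. Scaled by Ighm, B cell RNA in that proportion would amount to 232 and 151 CPM of Bach2 in Foxp3-positive cells, above the gate's own level in WT. In CD8 cells the same figure was 62.9 and 65.8 CPM, far below the gate's level.

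Id3 was sparse in every gate. It was highest in gamma-delta T cells, with 59.4 CPM (35.2–93.8) and 50.5 CPM (26.9–86.4) on 18 and 13 UMIs, followed by CD8 cells with 42.6 and 35.6 CPM and CD4 cells with 31.2 and 26.1 CPM. NK cells held 13 and 2 Id3 UMIs and ILC1 cells 0 and 1, and no 2 neighbouring gates in its order were apart in either library.

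**Figure D1:**
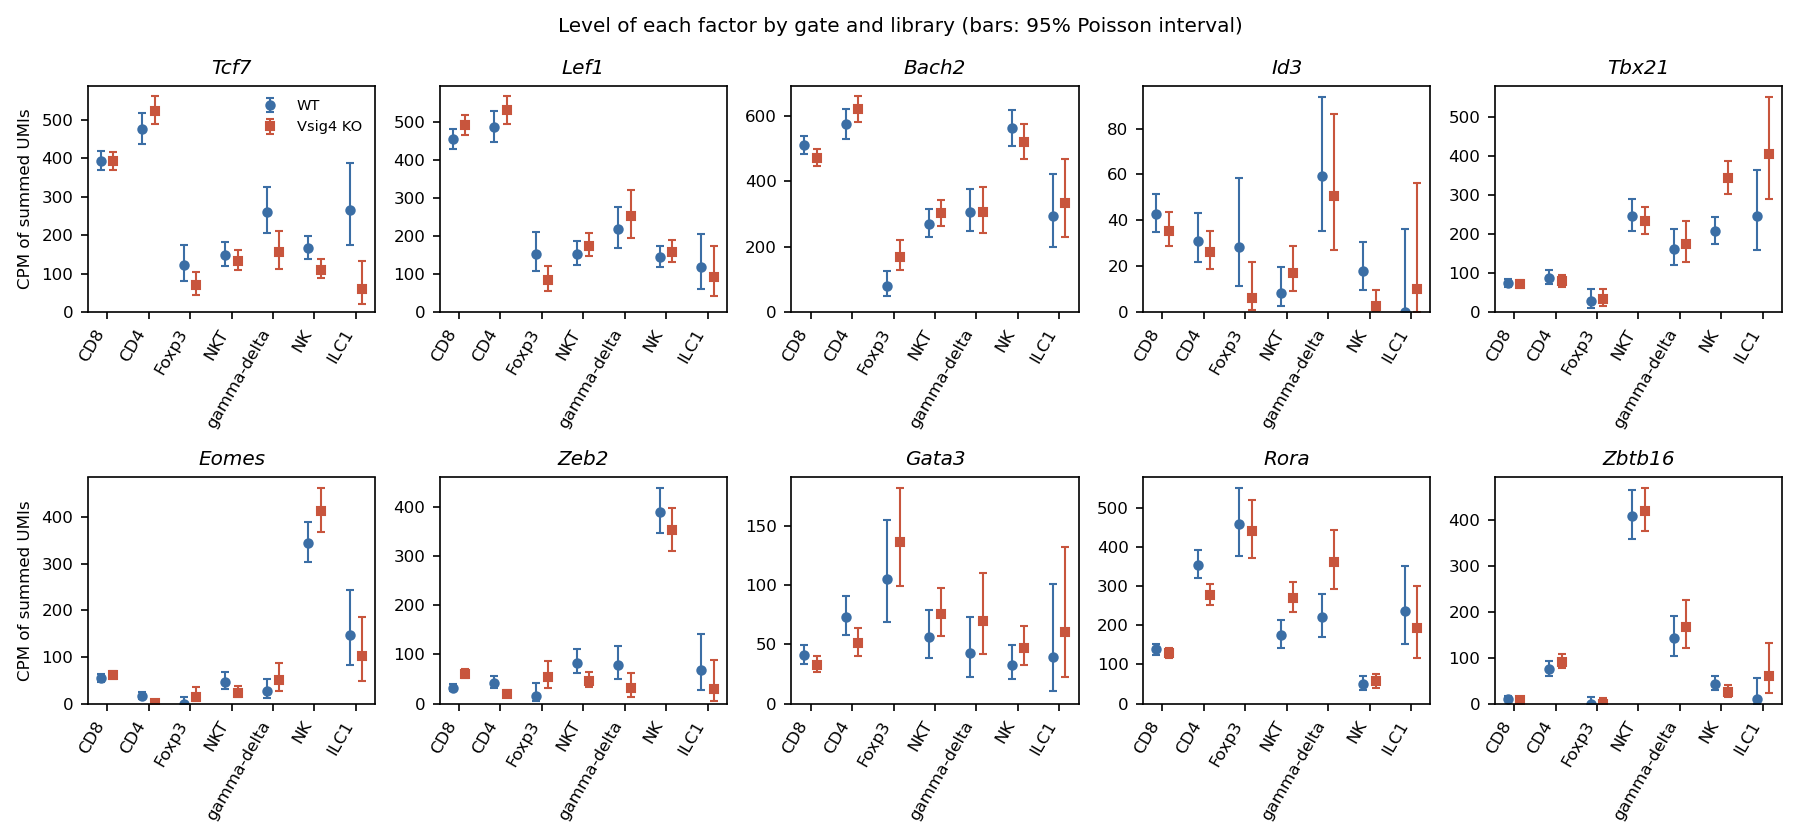
Levels of the 10 factors in CPM (UMIs of the gene per 1000000 UMIs of the gate) in the 7 lymphocyte gates, 1 panel per gene, with WT and Vsig4 KO side by side and 95% Poisson intervals. Each factor reaches its highest level in the same gate in both libraries, for example Zbtb16 in NKT cells at 409 and 420.0 CPM.

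Tbx21, Eomes and Zeb2 ran the other way from Tcf7 and Lef1 between NK cells and CD8 or CD4 cells in both libraries. Over all 7 gates such an opposition was weak or absent in WT. The Pearson r of Tcf7 with Tbx21, Eomes and Zeb2 was 0.03, 0.23 and -0.16 in WT and -0.35, -0.52 and -0.27 in Vsig4 KO. For Lef1 it was -0.38, -0.15 and -0.37 in WT and -0.25, -0.41 and -0.24 in Vsig4 KO. Tbx21 was at 246 CPM (159.5–364) in WT ILC1 cells, 245 CPM (207–289) in NKT cells and 207 CPM (176–243) in NK cells, none of which were apart. In Vsig4 KO the ILC1 and NK gates held 405 CPM (289–552) and 343 CPM (302–388), and the NK gate was apart from the NKT gate with 232 CPM (199–269). Gamma-delta T cells followed with 162 and 175 CPM, apart from CD4 cells with 88.3 and 78.9 CPM. CD8 cells (73.8 and 70.7 CPM) were near the CD4 level, and Foxp3-positive cells were lowest with 28.4 and 33.3 CPM, apart from CD8 cells.

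Eomes was far more restricted. NK cells held 345 CPM (303–390.0) and 413 CPM (368–462) in WT and Vsig4 KO, and the ILC1 gate 148 CPM (82.8–244) and 101 CPM (48.6–186). CD8 cells came next with 54.5 and 60.7 CPM, beside NKT cells with 46.0 and 23.5 CPM and gamma-delta T cells with 26.4 and 50.5 CPM, and above CD4 cells with 18 and 1 UMIs and Foxp3-positive cells with 0 and 5 UMIs. NK cells were apart from every other gate in both libraries.

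Zeb2 was likewise highest in NK cells, at 389.9 CPM (346–438) and 352 CPM (311–398), apart from all other gates. The order below NK cells differed between the libraries: NKT (83.4 CPM), gamma-delta T (79.2), ILC1 (69.0), CD4 (42.8), CD8 (32.4) and Foxp3-positive cells (16.2) in WT, but CD8 (61.1), Foxp3-positive (54.4), NKT (47.0), gamma-delta T (31.1), ILC1 (30.4) and CD4 cells (18.9) in Vsig4 KO. No neighbours among those 6 gates were apart. Myeloid cells carry much Zeb2 (1039 and 1021 CPM). Scaled by Lyz2, myeloid RNA in that proportion would give 2.30 and 1.62 CPM in CD8 cells and 2.80 and 1.67 CPM in CD4 cells, well below the levels of those gates. B cells carry some as well (144 and 115 CPM), and scaled by Ighm their RNA would give 5.57 and 5.71 CPM in CD8, 5.38 and 6.69 CPM in CD4 and 20.5 and 13.1 CPM in Foxp3-positive cells. The WT value for Foxp3-positive cells is above the gate's own level.

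Gata3 and Rora shared their highest gate, the Foxp3-positive cells. Gata3 was at 106 CPM (68.9–155) and 136 CPM (99.3–182) there, against 73.1 and 50.8 CPM in CD4, 56.2 and 75.7 CPM in NKT, 42.9 and 70.0 CPM in gamma-delta T, 39.4 and 60.8 CPM in ILC1, 40.7 and 33.0 CPM in CD8 and 33.0 and 47.1 CPM in NK cells. In Vsig4 KO the Foxp3-positive gate was apart from the next, the NKT gate, and no neighbours were apart in WT. Rora, by far the longest of the genes at 734 kb, was at 459 CPM (378–551) and 442 CPM (373–519) in Foxp3-positive cells. CD4 cells held 355 and 278 CPM, gamma-delta T cells 221 and 362 CPM, ILC1 cells 237 and 192 CPM and NKT cells 175 and 270.0 CPM, and Foxp3-positive cells were apart from the next gate in WT but not in Vsig4 KO. NK cells held the least Rora, 50.8 and 56.5 CPM, apart from CD8 cells with 138 and 128 CPM.

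Zbtb16 set NKT cells apart from every other gate, with 409 CPM (359–464) and 420.0 CPM (375–469). Gamma-delta T cells came second (142 and 167 CPM) followed by CD4 cells (75.8 and 91.2 CPM), with NKT and gamma-delta T cells and gamma-delta T and CD4 cells apart in both libraries. CD8 cells held 11.1 and 7.04 CPM, and Foxp3-positive cells had no Zbtb16 UMI in either library, which allows up to 3 counts in each sum. The NKT gate was set by Klrb1c and T cell receptor genes, and did not use Zbtb16.

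The share of cells with a transcript was also read at equal depth. It is given here for Tcf7 in CD8, Zbtb16 in NKT and Tbx21 in NK cells beside B cells. These shares do not show the order of the gates. After thinning each cell to 1000 UMIs, Tcf7 was found in 30.8% (26.8–34.9) of WT and 31.1% (27.0–35.3) of Vsig4 KO CD8 cells, against 0.294% and 0% of B cells, which should lack it. Without thinning the CD8 values were 68.5% and 69.0% and the B cell values 0.637% and 0.532%, at median depths of 4038 and 4619 UMIs in CD8 cells and 2410 and 2783 in B cells. Zbtb16 was found in 24.8% (18.1–32.6) and 32.9% (26.0–40.5) of thinned NKT cells (51.3% and 57.5% unthinned) and in 0.118% and 0.271% of thinned B cells. Tbx21 was found in 19.1% (13.9–25.3) and 28.4% (22.1–35.4) of thinned NK cells (50.8% and 66.0% unthinned), with 0.530% and 0.163% in thinned B cells. All of these lymphocyte shares were far above the B cell background.

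For each factor the genes with the most similar pattern were ranked by Pearson r of log2(CPM + 1) over the 14 sums of gate and library, among 6598 genes with at least 200 UMIs. The closest genes were Fam78a (r = 0.92) for Tcf7, Ablim1 (0.92) for Lef1, and Satb1 (0.87) for Bach2. For the effector factors they were Efhd2 (0.96) for Tbx21, Baiap3 (0.91) for Eomes, and Colgalt1 (0.95) for Zeb2. Id3 was closest to Dpp4 (0.84), Gata3 to Hilpda (0.93), Rora to Smco4 (0.92) and Zbtb16 to Ptpn22 (0.92). The 14 sums share 2 libraries, so these values are descriptions of this set of cells.

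Within CD8 cells, surface genes that are not members of the set divided a naive side (Ccr7 present, no Cxcr6, Cx3cr1, Klrg1 or Cd160; 184 WT and 219 Vsig4 KO cells) from an effector side with the reverse pattern (136 and 151 cells). The opposed gradients appeared in each library. Of the 9 members with at least 20 UMIs over both sides, 4 were at least 1.5-fold higher on the effector side and 4 at least 1.5-fold lower in WT, where 31.2% of all genes were that much higher and 11.4% that much lower. In Vsig4 KO 5 of 9 were higher and 4 lower, against 29.7% and 11.1% of all genes. Zbtb16, with 15 and 13 UMIs, was the one below the minimum.

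Lef1 was at 754 CPM on the naive and 168 CPM on the effector side in WT, a ratio of 4.48 (3.69–5.48), and at 792 and 154 CPM in Vsig4 KO, a ratio of 5.13 (4.28–6.20). Bach2 showed a similar slope, 868 against 169 CPM in WT and 749.6 against 186 CPM in Vsig4 KO. The Tcf7 slope was shallower: 535 against 207 CPM in WT, 2.58-fold (2.14–3.12), and 575 against 154 CPM in Vsig4 KO, 3.73-fold (3.09–4.52). The step of Tcf7 was thus the larger one in the Vsig4 KO library, though the intervals of the 2 ratios just overlap. Id3 followed the naive side with 55.6 against 35.3 CPM and 50.7 against 16.002 CPM, of which the WT step was within counting error of none. B cell RNA was also higher on the naive side: Ighm was at 118 and 142 CPM there and at 62.4 and 65.1 CPM on the effector side. Its part in the Bach2 slope was not tested.

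In the opposite direction Tbx21 was at 18.9 CPM on the naive and 134 CPM on the effector side in WT, 7.09-fold (4.16–12.9), and at 16.02 and 144 CPM in Vsig4 KO, 8.99-fold (5.46–15.7). Rora had the same direction, with 45.0 against 214 CPM in WT and 48.1 against 213 CPM in Vsig4 KO. Zeb2 was nearly absent from the naive side: 3 UMIs on the naive and 62 on the effector side in WT, a ratio of 23.7 (7.73–118), and 14 against 109 UMIs in Vsig4 KO, a ratio of 10.0 (5.71–18.9). Gata3 was 2.02-fold (1.15–3.63) and 2.03-fold (1.19–3.54) higher on the effector side. Zeb1, the relative of Zeb2, ran the other way, at 592 and 609.8 CPM on the naive and 156 and 193 CPM on the effector side.

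Eomes did not follow Tbx21 in WT. Its level was 61.5 CPM on the naive and 66.4 CPM on the effector side in WT, a ratio of 1.08 (0.716–1.63) that was within counting error of no difference. In Vsig4 KO it was 41.8 against 78.9 CPM, a ratio of 1.88 (1.28–2.79), an interval that excludes 1 but overlaps that of WT. Cells with markers of both sides (40 in WT and 39 in Vsig4 KO) held Eomes at 29.0 CPM (12.5–57.1) and 65.3 CPM (40.9–98.8), on 8 and 22 UMIs, and cells with neither at 43.0 and 71.2 CPM. Cells with both held Tcf7 at 428 and 427 CPM, between the naive and effector sides, with Tbx21 at 36.2 and 65.3 CPM. Their median depth was 5288.5 and 6677 UMIs, above that of the whole gate, and its part in the class was not tested.

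**Figure D2:**
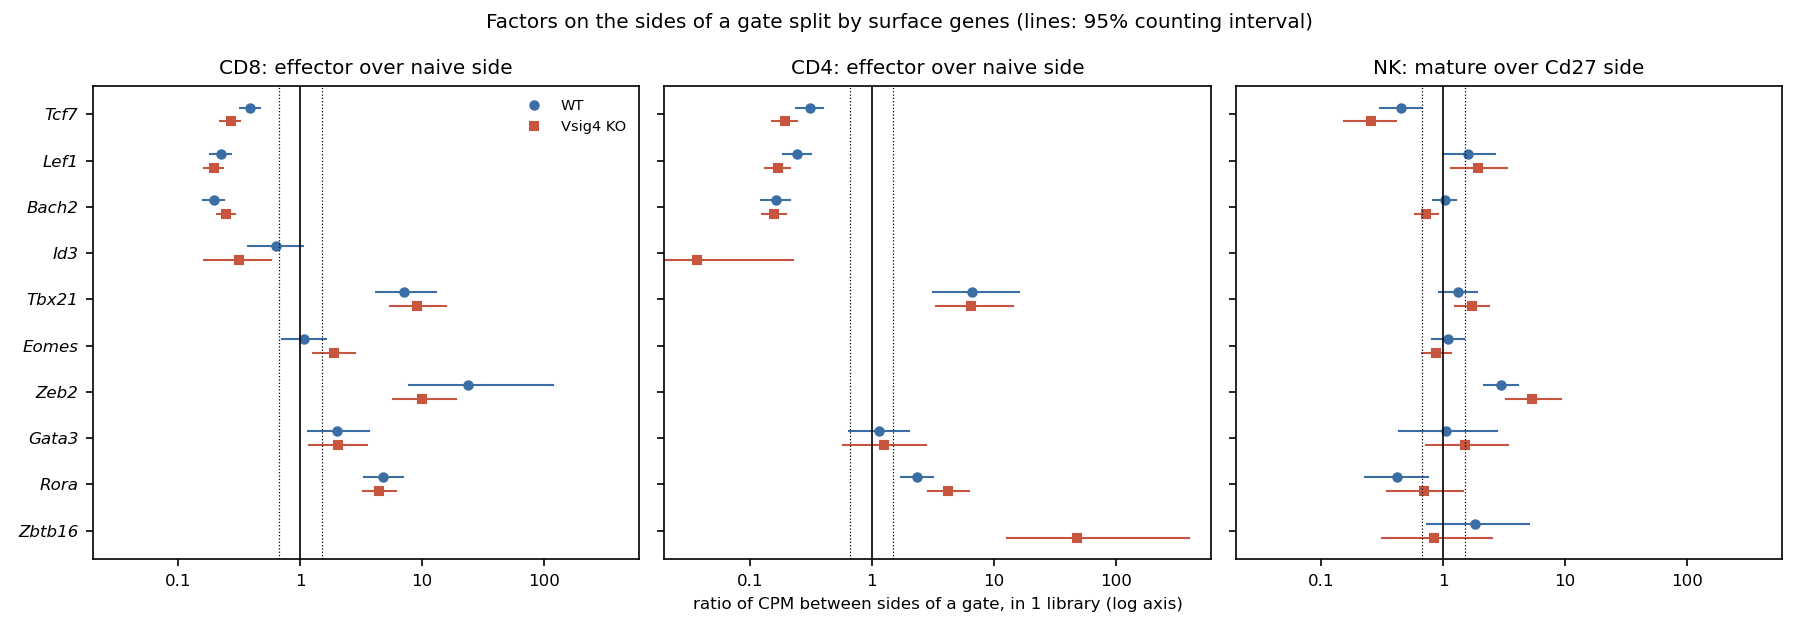
Ratio of each factor between the effector and naive side of CD8 and CD4 cells and between the mature and Cd27 side of NK cells, on a log axis with 95% intervals for each library; genes with under 20 UMIs over both sides or none on 1 side are not drawn, and the interval of Id3 in Vsig4 KO CD4 cells runs past the axis. Lef1, Bach2 and Tcf7 lie on the naive side and Tbx21 and Rora on the effector side in CD8 and CD4 cells of both libraries, with Tbx21 at 7.09 and 8.99 in CD8 cells.

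CD4 cells divided by the same surface genes (77 and 108 naive, 73 and 83 effector cells) repeated the gradient with a different effector end. In WT 4 of 8 members with enough UMIs were higher and 3 lower on the effector side, against 25.9% and 15.7% of all genes, and in Vsig4 KO 3 of 8 were higher and 4 lower, against 29.7% and 15.6%. The naive side was higher in Bach2 by 6.13-fold (4.70–8.09) in WT and 6.30-fold (5.04–7.94) in Vsig4 KO, in Lef1 by 4.09-fold (3.14–5.37) and 5.88-fold (4.66–7.50), and in Tcf7 by 3.23-fold (2.50–4.19) and 5.14-fold (4.06–6.58). As in CD8 cells, the Tcf7 step was larger in the Vsig4 KO library and the intervals just overlap. Tbx21 was higher on the effector side by 6.64-fold (3.16–16.1) and 6.57-fold (3.35–14.4).

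Of the 2 sides of CD4 cells, Zbtb16, the PLZF gene, was almost wholly on the effector side. It had 0 UMIs on the naive and 47 on the effector side in WT, at least 13.9-fold higher against a floor of 3 counts for the naive sum (lower limit of the 95% interval 10.8), and 2 against 92 in Vsig4 KO, a ratio of 47.9 (12.9–402). Trav11, the alpha chain segment of invariant NKT cells, had 3 and 2 UMIs on that side and none on the naive side, although Klrb1c-positive cells had been left out of the gate. It was not particular to the effector side, with 8.39 and 4.38 CPM there. CD4 cells with neither kind of surface gene held 9.58 and 3.73 CPM of Trav11. Zeb2 had 0 against 39 UMIs in WT, at least 11.5-fold higher on the effector side against the same floor (lower limit 8.92), and 2 against 7 in Vsig4 KO.

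NK cells were divided by maturation genes into a Cd27 side (Cd27 present, no Itgam or Klrg1; 62 and 48 cells) and a mature side with the reverse pattern (124 and 128 cells). Divided here were all 355 and 306 Klrb1c and Ncr1 cells without the surface genes of the ILC1 gate, a wider set than the 199 and 191 cells of the NK gate, which also asks for Itga2 or Itgam. Of the 9 members with enough UMIs, 3 were higher and 2 lower on the mature side in WT, where 15.5% and 9.7% of all genes were, and 4 and 1 in Vsig4 KO, where 16.7% and 12.4% were. Zeb2 was at 190.1 CPM on the Cd27 and 562 CPM on the mature side in WT, 2.96-fold (2.16–4.13), and at 85.8 and 459 CPM in Vsig4 KO, 5.35-fold (3.30–9.21). Tcf7 had the opposite direction, with 257 against 116 CPM in WT, a ratio of 2.22 (1.498–3.31) for the Cd27 over the mature side, and 238 against 60.9 CPM in Vsig4 KO, a ratio of 3.91 (2.42–6.45).

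Lef1 did not accompany Tcf7 in NK cells. It was at 99.0 CPM on the Cd27 and 159 CPM on the mature side in WT, a mature over Cd27 ratio of 1.61 (0.995–2.66), and at 90.6 and 174 CPM in Vsig4 KO, a ratio of 1.92 (1.15–3.36). Tcf7 and Lef1, alike in direction over the naive and effector sides of T cells, thus pointed in opposite directions over NK maturation, though the Lef1 interval in WT includes 1. Tbx21 had mature over Cd27 ratios of 1.31 (0.919–1.90) and 1.72 (1.26–2.38), Eomes of 1.10 (0.818–1.48) and 0.881 (0.675–1.16), and Bach2 of 1.03 (0.827–1.28) and 0.730 (0.587–0.910). Of the Eomes and Bach2 intervals only that of Bach2 in Vsig4 KO excludes 1.

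**Figure D3:**
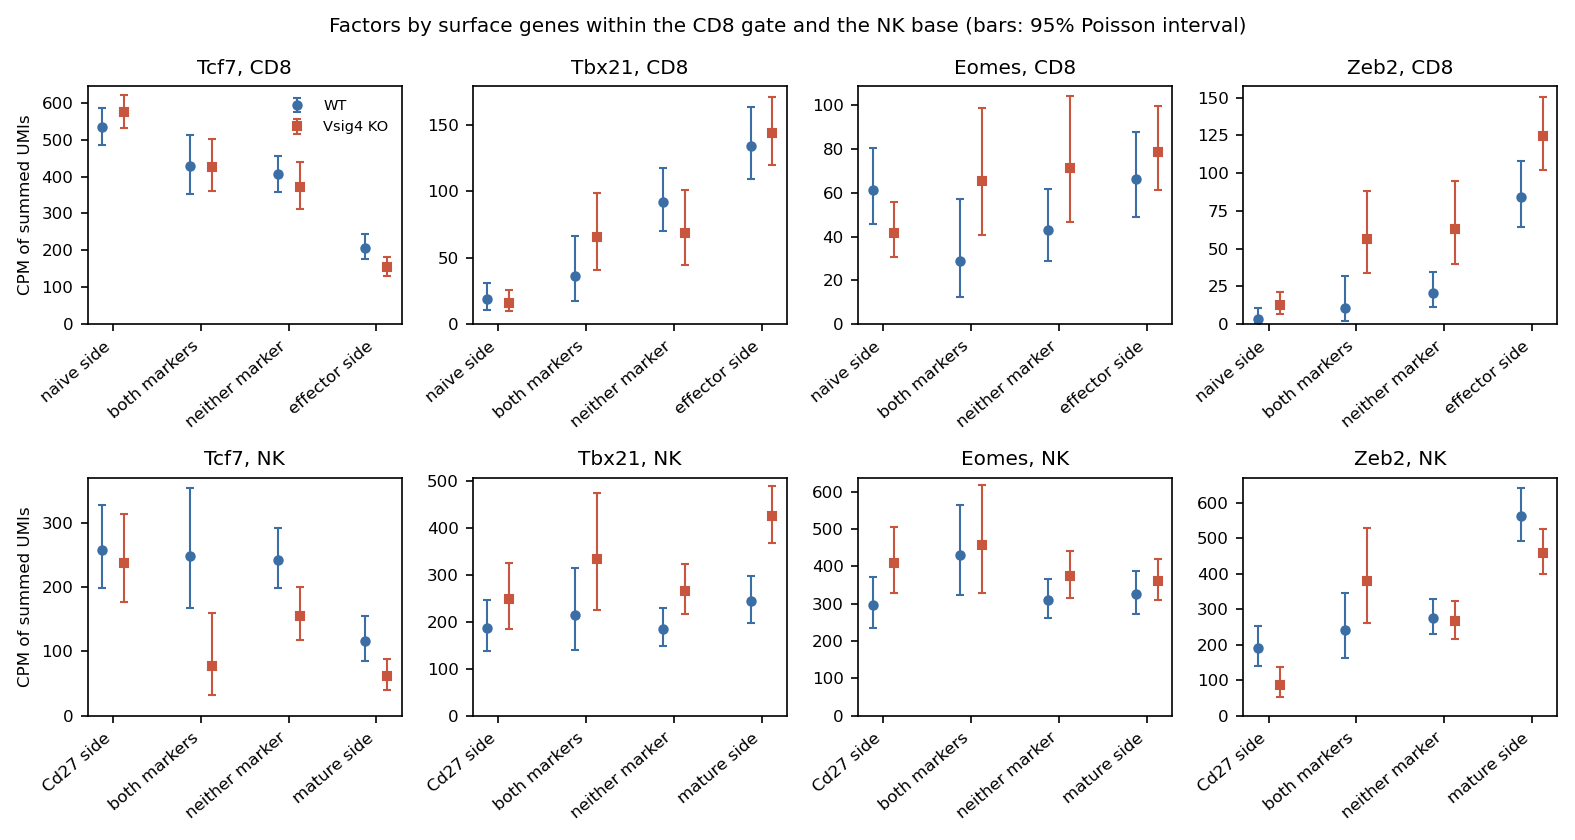
Levels in CPM of Tcf7, Tbx21, Eomes and Zeb2 in CD8 cells with naive, both, neither or effector surface genes and in NK cells with Cd27, both, neither or mature surface genes, with 95% Poisson intervals for each library. Tcf7 is lowest and Zeb2 highest at the effector and mature ends, and on the CD8 effector side Eomes is at 66.4 and 78.9 CPM.

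Gamma-delta T cells with a UMI of a surface gene of the type 17 kind (Il23r, Ccr6, Cd163l1 or Il1r1), a division chosen after values had been seen, were few, 13 in WT and 7 in Vsig4 KO. They held Rora at 739 and 734 CPM against 112 and 224 CPM in the other gamma-delta T cells, and Zbtb16 at 663 and 389 CPM against 31.9 and 85.2 CPM. Lef1 was at 37.9 and 115 CPM in them (2 and 8 UMIs) and 256 and 304 CPM in the others (64 and 57 UMIs). In each library Rora and Zbtb16 were thus higher, and Lef1 lower, in these few cells. Gzma, Prf1 and Klra8 summed to 37.9 and 2562 CPM in them, against 1833 and 581 CPM in the others. By these genes the 13 WT and 7 Vsig4 KO cells were not alike.

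Tcf7 and Tbx21 or Zeb2 were also opposed cell by cell in the 505 WT and 477 Vsig4 KO CD8 cells with at least 2000 UMIs, thinned to that depth. Tcf7 was found in 32.3% (20.9–45.3) of WT cells with a Tbx21 UMI and in 51.9% (47.2–56.7) of those without, and in 17.9% (8.91–30.4) and 56.3% (51.4–61.1) in Vsig4 KO. Unthinned shares were 57.8% and 71.5% in WT and 52.0% and 74.8% in Vsig4 KO. By Zeb2 the thinned shares with Tcf7 were 16.7% (4.74–37.4) with and 51.1% (46.6–55.7) without in WT, and 21.3% (10.7–35.7) and 55.1% (50.3–59.9) in Vsig4 KO. By Eomes the direction differed between the libraries, on 40 (WT) and 41 (Vsig4 KO) cells with Eomes. Tcf7 was found in 62.5% (45.8–77.3) of WT cells with Eomes and in 48.4% (43.8–53.0) of those without. In Vsig4 KO the shares were 48.8% (32.9–64.9) with and 52.1% (47.3–56.8) without. The intervals for cells with and without Tbx21 or Zeb2 did not overlap in either library, while those for Eomes did in both. With Lef1 in place of Tcf7 the intervals by Tbx21 did not overlap in either library, but by Zeb2 they did in WT, 33.3% (15.6–55.3) with and 49.1% (44.5–53.6) without. In CD4, NKT and NK cells the Tcf7 intervals with and without Tbx21 overlapped in both libraries, as did those with and without Zeb2. The Tcf7 share of CD4 cells was still lower with Tbx21, 42.4% against 58.6% in WT and 42.9% against 57.3% in Vsig4 KO. Only 33 and 35 CD4 cells had Tbx21. Lef1 shares of CD4 cells with and without Tbx21 were 27.3% (13.3–45.5) and 51.4% (44.5–58.4) in WT. For Vsig4 KO they were 14.3% (4.81–30.3) and 50.7% (44.6–56.8), intervals that did not overlap. In Vsig4 KO the Tcf7 shares with and without Tbx21 were 20.0% (10.4–33.0) and 19.3% (12.3–27.9) in NKT cells and 14.9% (8.20–24.2) and 14.6% (8.01–23.7) in NK cells.

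**Figure D4:**
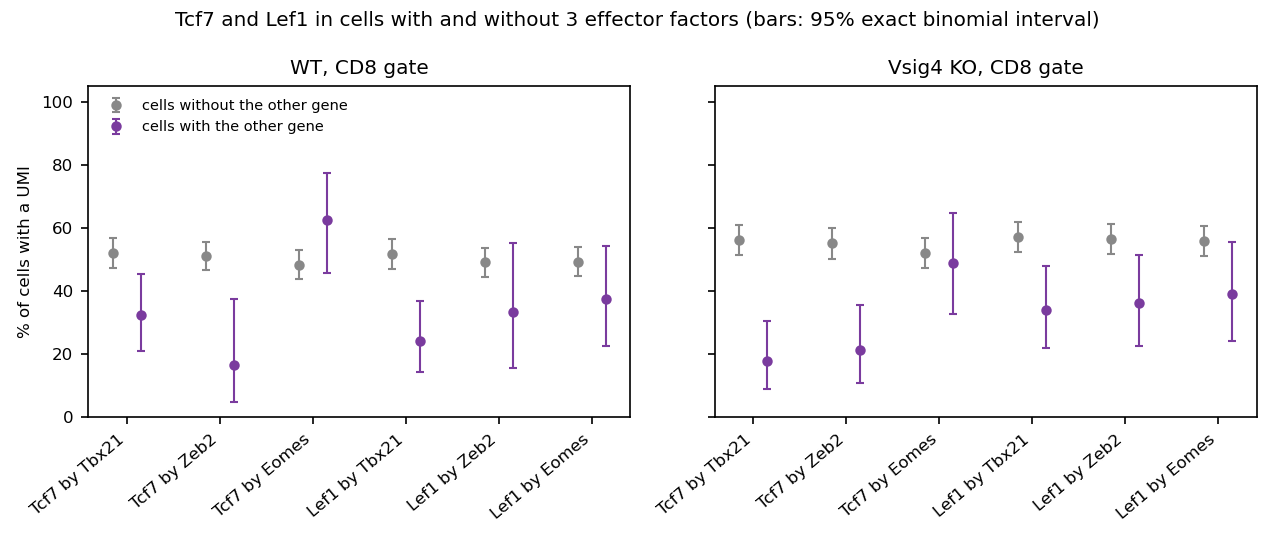
Share of CD8 cells, thinned to 2000 UMIs, that had a UMI of Tcf7 or Lef1 among cells with and without a UMI of Tbx21, Eomes or Zeb2, with Clopper-Pearson 95% intervals for each library. In WT the Tcf7 share was 32.3% in cells with Tbx21 and 62.5% in cells with Eomes.

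Between the genotypes all 10 factors kept the same highest gate. Of the 70 pairs of factor and gate, 59 had at least 20 UMIs; the 11 others were Id3 in Foxp3-positive, NKT, NK and ILC1 cells, Eomes in CD4 and Foxp3-positive cells, Tbx21 in Foxp3-positive cells, Zbtb16 in Foxp3-positive and ILC1 cells, and Zeb2 and Gata3 in ILC1 cells. Past 1.5-fold in either direction were 2 of 10 members in CD8 cells (12.3% of all genes), 1 of 9 in CD4 cells (16.7%), 4 of 6 in Foxp3-positive cells (29.5%), 3 of 9 in NKT cells (21.9%), 5 of 10 in gamma-delta T cells (30.6%), 3 of 9 in NK cells (18.7%) and 2 of 6 in ILC1 cells (31.9%). In total 9 pairs were higher and 11 lower in Vsig4 KO, and the interval of 14 of these 20 lay wholly on 1 side of equality. The members' median log2 ratio was -0.08 in CD8 cells and -0.16 in CD4 cells, against 0.02 and -0.01 for all genes.

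**Figure D5:**
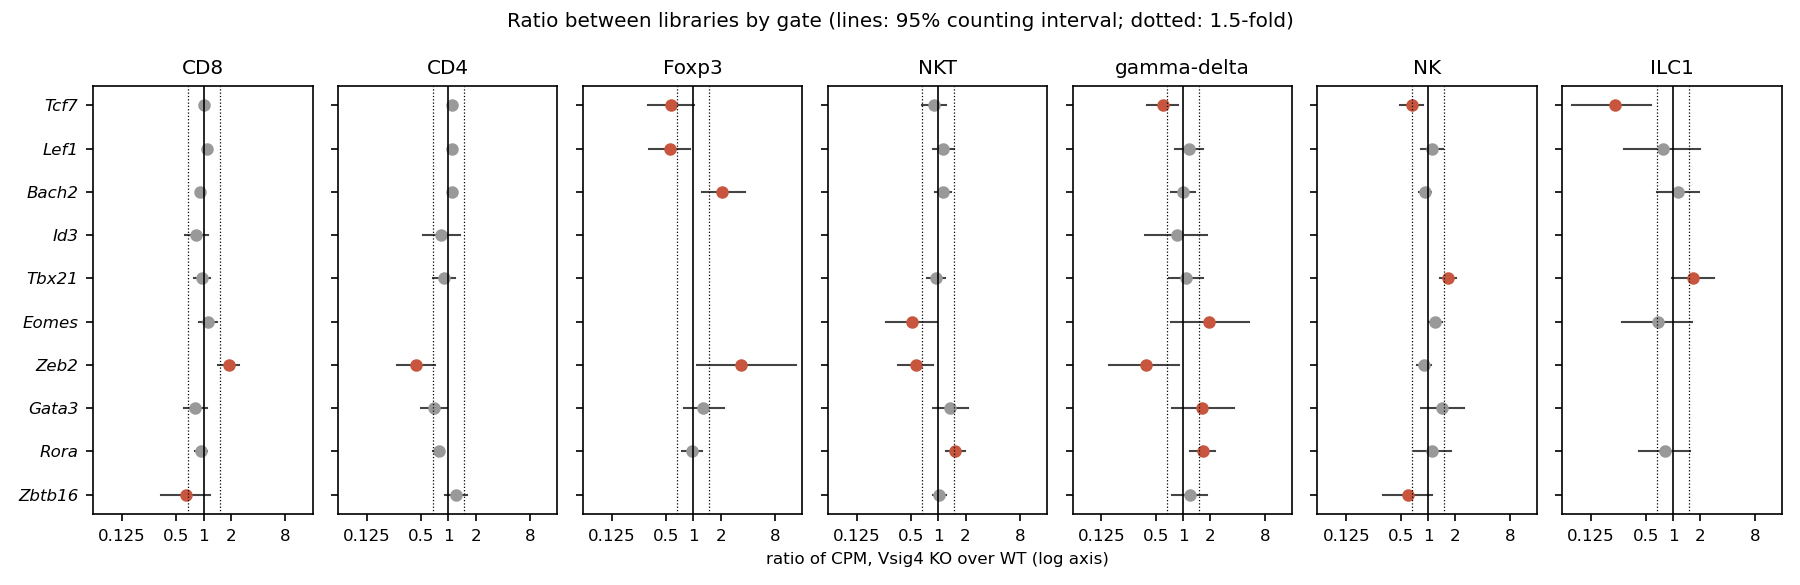
Ratio of Vsig4 KO over WT for each factor in each gate, on a log axis with 95% intervals for counting error; dotted lines mark 1.5-fold, red points lie past it, and pairs with under 20 UMIs are not drawn. Zeb2 lies above the band in CD8 cells at 1.89 and below it in CD4 cells at 0.442, and Tcf7 lies below it in 4 gates.

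Zeb2 pointed in opposite directions in different T cells. In CD8 cells it was at 32.4 CPM (25.7–40.2) in WT and 61.1 CPM (52.1–71.2) in Vsig4 KO, 82 UMIs in 39 cells and 165 in 78 cells, a ratio of 1.89 (1.44–2.49). In CD4 cells it was at 42.8 CPM (31.6–56.7) and 18.9 CPM (12.7–27.1), 48 UMIs in 23 and 29 in 16 cells, a ratio of 0.442 (0.269–0.715). The CD8 and CD4 ratios thus lay on either side of equality with intervals well apart.

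The CD8 difference in Zeb2 had the same direction in all 4 classes of surface genes. On the effector side the level was 84.1 and 125 CPM, a ratio of 1.48 (1.08–2.06), which is under 1.5-fold. Cells with both kinds of gene held 10.9 and 56.4 CPM (3 and 19 UMIs, a ratio of 5.19), cells with neither 20.7 and 63.0 CPM (14 and 23 UMIs), and the naive side 3 and 14 UMIs. On that side B cell RNA scaled by Ighm would give 6.49 CPM of Zeb2 in WT, above the measured 3.55 CPM, and 7.93 of 12.5 CPM in Vsig4 KO, and its part in the naive values was not tested. The effector side held 25.5% (21.9–29.4) of CD8 cells in WT and 30.0% (26.0–34.2) in Vsig4 KO, and cells with neither 32.5% (28.5–36.6) and 18.8% (15.5–22.5). The ratio over the gate thus includes both the differences within the classes and those in their shares.

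The other T cell gates rested on fewer Zeb2 UMIs. NKT cells had 49 and 36 UMIs, a ratio of 0.563 (0.356–0.883), and gamma-delta T cells 24 and 8 UMIs, a ratio of 0.393 (0.153–0.904), with 11 of the WT UMIs in 1 cell. With no doublet scores removed the gamma-delta T ratio was 0.610. Foxp3-positive cells had 4 and 18 UMIs and a ratio of 3.35 (1.10–13.6), but 9 of the Vsig4 KO UMIs lay in 1 cell, and without the top cell of each library the ratio was 2.09 on fewer than 20 UMIs. The B cell RNA in this gate, which by Ighm could hold all of the WT Zeb2, was not tested for its part in the ratio. Without the top cells the CD8 ratio was 2.08 and the CD4 ratio 0.501. NK cells, where the gene is highest, gave a ratio of 0.903 (0.761–1.07), but on the Cd27 side it was 0.451 (0.247–0.790) on 48 and 18 UMIs.

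In NK cells Tbx21 was past 1.5-fold upward and Tcf7 downward. Tbx21 was at 207 CPM (176–243) in WT and 343 CPM (302–388) in Vsig4 KO NK cells, a ratio of 1.65 (1.35–2.04). Tcf7 was at 166 CPM (138–199) and 110.2 CPM (87.7–137), a ratio of 0.664 (0.495–0.886). Among the mature cells of the wider set the ratios were 1.74 (1.36–2.25) for Tbx21 and 0.525 (0.316–0.858) for Tcf7, and on the Cd27 side 1.33 (0.880–2.02) and 0.926 (0.627–1.36). The mature side was 34.9% (30.0–40.1) of that set in WT and 41.8% (36.2–47.6) in Vsig4 KO. In the NK gate Ighm, Igkc and Cd74 summed to 982 CPM in WT and 218 CPM in Vsig4 KO. Ighm alone was at 68.6 CPM in each library, and Igkc was at 0 in WT. Without cells that had a UMI of the B cell or myeloid surface genes the ratios were 1.58 for Tbx21 and 0.654 for Tcf7. With each cell weighted alike the ratios were 1.48 for Tbx21 and 0.683 for Tcf7, both just inside 1.5-fold, and with the NK gate set by Itga2 alone the Tcf7 ratio was 0.722. Eomes gave a ratio of 1.20 (1.01–1.42) and Bach2 of 0.924 (0.802–1.06) in NK cells, both under 1.5-fold.

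Tcf7 was at least 1.5-fold lower in Vsig4 KO in 4 gates, none of them the CD8 or CD4 gate. Besides NK cells these were gamma-delta T cells with 261 CPM (206–325) and 155 CPM (111–212), a ratio of 0.597 (0.397–0.884), Foxp3-positive cells with a ratio of 0.571 (0.317–1.02), and ILC1 cells with a ratio of 0.228 (0.0771–0.565) on 27 and 6 UMIs. In gamma-delta T cells Ighm, Igkc and Cd74 summed to 221 CPM in WT and 1819 CPM in Vsig4 KO. Ighm alone was at 99.0 and 70.0 CPM in these cells. Without cells that had a UMI of the B cell or myeloid surface genes their ratios were 0.571 for Tcf7, 0.365 for Zeb2 and 1.72 for Rora. Among ILC1 cells thinned to 1000 UMIs a Tcf7 UMI was found in 36.4% (17.2–59.3) (WT) and 0% (0–16.8) (Vsig4 KO) (63.6% and 30.0% unthinned). In CD8 and CD4 cells the ratios were 0.998 (0.915–1.09) and 1.10 (0.984–1.23). On the CD8 effector side, however, Tcf7 was at 207 and 154 CPM, a ratio of 0.744 (0.586–0.944), against 1.07 (0.952–1.21) on the naive side.

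In Foxp3-positive cells, 51 and 58 in number, Lef1 and Bach2 also passed 1.5-fold. Lef1 was at 154 CPM (109–212) and 84.7 CPM (56.3–122), a ratio of 0.549 (0.325–0.919), and Bach2 at 20 and 56 UMIs, a ratio of 2.09 (1.23–3.67). With at least 2 Foxp3 UMIs asked of a cell the Bach2 ratio was 3.92, on 6 and 34 UMIs. Lef1 and Bach2, which ran together over the naive and effector sides of T cells, thus differed in opposite directions here. Ighm was at 373 and 233 CPM in these cells. Scaled by it, B cell RNA would give 232 and 151 CPM of Bach2, against 81.2 and 169 CPM measured. Its part in the Bach2 ratio was not tested. Gata3 and Rora, the factors highest in this gate, gave ratios of 1.29 (0.779–2.18) and 0.963 (0.748–1.24).

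Rora was higher in Vsig4 KO in the innate-like T cells and lower in CD4 cells. NKT cells held 175 CPM (143–213) and 270.0 CPM (234–309), a ratio of 1.54 (1.21–1.97), and gamma-delta T cells 221 CPM (171–281) and 362 CPM (292–443), a ratio of 1.64 (1.18–2.27). With NKT cells chosen by Trav11 or Trav11d instead, the Rora ratio was 1.38. The CD4 ratio was 0.784 (0.683–0.901), under 1.5-fold over the gate but 0.382 (0.244–0.587) on the naive side, on 61 and 35 UMIs. Zbtb16, by contrast, gave 1.03 (0.867–1.22) in NKT cells and 1.18 (0.754–1.84) in gamma-delta T cells, both under 1.5-fold. Its ratios of 0.637 (0.336–1.18) in CD8 and 0.6002 (0.320–1.10) in NK cells rested on 28 and 19 UMIs and 31 and 19 UMIs, and were 0.830 with CD8 cells weighted alike and 0.965 with the NK gate set by Itga2 alone.

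The Eomes ratio lay on either side of 1 within the CD8 gate, within counting error. Over all CD8 cells it was at 54.5 and 60.7 CPM, a ratio of 1.11 (0.884–1.41), but on the naive side the ratio was 0.680 (0.448–1.03) and on the effector side 1.19 (0.811–1.75). These intervals overlap and each includes 1, and they come from the same counts as the Eomes ratios between the sides given above. In NKT cells Eomes had 27 and 18 UMIs, a ratio of 0.511 (0.265–0.962), and in gamma-delta T cells 8 and 13 UMIs, a ratio of 1.92 (0.736–5.33). With each cell weighted alike the gamma-delta T ratio of Eomes was 5.35. Tbx21 in ILC1 cells had 25 and 40 UMIs, a ratio of 1.64 (0.973–2.83), and Gata3 in gamma-delta T cells 13 and 18 UMIs, a ratio of 1.63 (0.756–3.62), and the intervals of the last 3 ratios include 1. No pair of Id3 with enough UMIs passed 1.5-fold.

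A list of 24 related lymphocyte factors, such as Id2, Runx3, Klf2, Satb1 and Tox, was set beside the members. In CD8 cells 1 of 23 with enough UMIs was higher and 2 lower in Vsig4 KO, against 6.76% and 5.57% of all genes, and in CD4 cells 1 and 3 of 23, against 8.13% and 8.6%. In Foxp3-positive cells 3 and 4 of 21 were, against 13.5% and 16%, and in NKT cells 3 and 2 of 23, against 9.58% and 12.3%. In gamma-delta T cells 2 and 4 of 19 were, against 15.7% and 14.9%, and in NK cells none of 20, against 9.22% and 9.53%. The counts in the T cell gates lie near those shares. Their median log2 ratio in CD8 cells was 0.02, equal to that of all genes. On the CD4 effector side 4 of 22 were higher and 6 lower, against 12.5% and 12% of all genes. Among these were Tox, a factor of exhausted and helper T cells, with 456 and 138 CPM and a ratio of 0.303 (0.223–0.407), and the chromatin organiser Satb1 with 126 and 311 CPM and a ratio of 2.47 (1.76–3.54). Of the 8 members with enough UMIs on that side 1 was higher and 2 lower, against the same shares of all genes. The higher one was Zbtb16, at 131 CPM in WT and 201 CPM in Vsig4 KO. The lower ones were Zeb2, with a ratio of 0.141 (0.0530–0.318), and Gata3, with 0.429 (0.223–0.8001). Tcf7 gave 0.783 (0.570–1.07), under 1.5-fold. Of 8 genes of a naive programme (such as Il7r and S1pr1) none passed 1.5-fold in CD8 cells and 3 of 3 measured in NK cells were higher, where 9.22% of all genes were. Of 12 genes of an effector programme (such as Gzmb and Prf1) 5 were higher in CD8 cells, where 6.76% of all genes were, and 1 of 11 was higher and 1 lower in NK cells, near the shares of all genes there. Both lists hold surface genes used to divide the cells.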

How the data were processed

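UMI counts per gene and barcode were deposited by the authors as 1 filtered matrix per library, and are raw counts that are not normalized. Cell Ranger 7.1.0 and the mm10 build are named in the submitters' processing notes. Whether intronic reads or strand were counted is not given in the sources used here. Each library's UMIs summed to 28537154 (WT) and 25119175 (Vsig4 KO).

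A barcode was kept if it had 200 or more genes, 500 or more UMIs and a mitochondrial share of 10% or less (6872 and 5746 barcodes). Scrublet, run through scanpy 1.11.5, called 0% and 0.0174% of these as doublets at its own threshold, so the highest scores were removed instead, 0.8% of barcodes per 1000 barcodes (381 and 267 cells).

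Gates used raw UMIs. T cells had at least 2 UMIs of Cd3d, Cd3e and Cd3g and at most 1 each of B cell (Cd79a, Ms4a1) and myeloid (Csf1r, Adgre1, Cd14, Siglech) genes. Gamma-delta T cells had Trdc and no Trac, Cd4 or Cd8b1, and Foxp3-positive cells Foxp3 and no Cd8a, Cd8b1 or Trdc. NKT cells had Klrb1c and a T cell receptor constant gene without Cd8a, Cd8b1 or Foxp3, and CD8 and CD4 cells had their coreceptor without the other, Foxp3 or Klrb1c. NK and ILC1 cells had at least 2 UMIs of Klrb1c and Ncr1 and at most 1 of Cd3d, Cd3e and Cd3g, then Itga2 or Itgam without Itga1, Cd200r1 or Tnfsf10 (NK) or the reverse (ILC1). B and myeloid reference cells had at least 3 or 2 UMIs of their own surface genes and none of the others.

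UMIs were summed per gate and library. Intervals came from scipy 1.17.1, with numpy 2.4.6, pandas 2.3.3 and matplotlib 3.10.9 for the rest. No p-value was computed, because each genotype is 1 library and cells are not replicates. The calculations were tested on simulated data. The members, gates, lists and fold threshold were chosen with earlier results of these data known. A few genes of the first gate rules, sides and lists are not reported here, and every value was computed without them, a change made after seeing the data. Named beside the 10 members are genes of the fixed lists and, for each member, the closest of 3 genes by pattern. Alternatives changed the cell filters, gates, scaling, minimum counts and thinning, and 3 of them, with the division of gamma-delta T cells, were added after seeing the data. Promoter sequences are RefSeq's on GRCm38.p6, and 31107 of 31253 genes matched GENCODE M21.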

Additional observations from a re-analysis of the deposited data

Results flagged for a closer look

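Zeb2 differed between the libraries in opposite directions in different cells. Its Vsig4 KO over WT ratio was 1.89 in CD8 cells and 3.35 in Foxp3-positive cells, but 0.442 in CD4 cells, 0.563 in NKT cells and 0.393 in gamma-delta T cells. The intervals of all 5 ratios exclude 1 for counting error. Eomes also had 1 gate past 1.5-fold each way, at 0.511 in NKT and 1.92 in gamma-delta T cells, but its gamma-delta T interval (0.736–5.33) includes 1. The difference between the gates was not tested, since each genotype is 1 library. The Foxp3-positive and gamma-delta T values rest on 4 and 18 and on 24 and 8 UMIs. B cell RNA scaled by Ighm would give 20.5 CPM of Zeb2 in WT Foxp3-positive cells, above the measured 16.2 CPM, and its part in that ratio was not tested.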

How the results depend on the processing

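No paired analysis was possible because each genotype has 1 library. Of 523 ratios recomputed under the alternatives, 516 stayed within the counting interval of the reported value and 7 did not. All 20 pairs past 1.5-fold kept their direction throughout, and 12 of them stayed past it under every alternative. The 8 that did not were Zbtb16 in CD8 (0.615 to 0.830), Eomes in NKT (0.454 to 0.670), Rora in NKT (1.38 to 1.66), Tcf7 and Gata3 in gamma-delta T cells (0.430 to 0.672 and 1.20 to 2.08), and Tcf7, Tbx21 and Zbtb16 in NK cells (0.614 to 0.722, 1.48 to 1.73 and 0.537 to 0.965). With at least 100 UMIs asked of a pair, an alternative chosen after seeing the data, 6 of 33 pairs passed 1.5-fold in place of 20 of 59. By gate these were 1 of 9 in CD8 (3.91% of all genes with that many UMIs), 1 of 6 in NKT (9.91%), 2 of 4 in gamma-delta T (18.6%) and 2 of 6 in NK cells (6.58%). After thinning to 1000 UMIs, 5 factors in place of 3 differed 1.5-fold the same way in both libraries over NK maturation. Without thinning, 8 factors in place of 5 had the larger share of CD8 cells in Vsig4 KO, the library with the greater depth. Depth limits Id3 in all gates and every factor in the ILC1 and Foxp3-positive gates, where 31.9% and 29.5% of all genes passed 1.5-fold.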
